A study of Homo sapiens with 6 samples.

Results

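The genes described here are 4 CXC chemokine receptors, CXCR3, CXCR4, CXCR5 and CXCR6, and 6 chemokine ligands made by lymphocytes, CCL3, CCL4, CCL5, CCL20, XCL1 and XCL2. They were chosen by name, 10 genes in all, and found by matching gene identifiers without version to symbols in a table of 33644 genes. All 4 receptors and 3 of the 6 ligands, CCL3, CCL4 and CCL20, had a row, so that 7 of the 10 could be described, and 6 of those 7 had an adjusted p-value. CCL5, XCL1 and XCL2 were not analysed here.

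Chemokines are small secreted proteins that guide cells up a gradient, and their receptors are seven-pass membrane proteins that signal through inhibitory G proteins. In lymphocytes, CXCR4 and CXCR5 are known for placing cells in bone marrow and in lymphoid follicles, whereas CXCR3 and CXCR6 are known from effector and tissue-resident cells. CCL3, CCL4 and CCL5 are released by activated cytotoxic cells and draw in other leukocytes, and XCL1 and XCL2 draw in dendritic cells that carry XCR1.

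The labels give 6 samples, 3 of an alt-LAMA3 KO derivative of HEK293T and 3 of wild-type HEK293T, a human embryonic kidney line, with no treatment given, kept in the same serum-supplemented medium and collected at day 0. Alt-LAMA3 is named for LAMA3, a laminin alpha chain gene, and the labels do not say whether the knockout is 1 clone, nor if replicates were separate cultures, so the spread behind the p-values could be technical. The table holds the result of 1 comparison between 2 groups that its header does not name. Here the numerator group means the one on top of the deposited log2 fold change, so that positive values are higher in it, and the denominator group means its counterpart. No link from either to the knockout or to the wild type is assumed.

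The table goes against the cell type in the labels. T-lymphocyte genes were abundant, with 8 of 10 markers reaching a mean normalized count of 72.0 or more, against 1 of 10 markers of HEK293-derived lines and simple epithelium. The authors' deposited table gave a mean normalized count of 27074 for CD8A and 13003 for CD3E, and 3.42 for KRT8, a keratin of simple epithelia. NEFL, NEFM and SALL1 were listed at 0. LAMA3 had a mean of 18.98 and a log2 fold change of -0.62 (SE 0.69) in the authors' deposited table, with an adjusted p of 0.578 by the deposited Wald test, and cannot tell which group is the knockout. The lowest means took 9 values, each shared by at least 149 genes, where 6 libraries would give 6. Genes at 3 of these values had positive log2 fold changes, at 3 negative ones and at 3 a log2 fold change of 0. Each mean and level per kilobase below may therefore also include libraries that are in neither group compared. No value per sample was used, and library depths are unknown.

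CXCR4, the receptor of CXCL12, was by far the most abundant of these genes. Its mean normalized count over all libraries was 6163 in the authors' deposited table. CXCR3, the receptor of the interferon-induced chemokines CXCL9, CXCL10 and CXCL11, had a mean of 99.1 in the authors' deposited table. CXCR6, the receptor of CXCL16, had a mean of 23.9, and CXCR5, the receptor of the follicle chemokine CXCL13, a mean of 10.1, both in the authors' deposited table. Of the ligands, CCL3 had a mean of 151 and CCL4 a mean of 48.6 in the authors' deposited table. CCL20, the ligand of CCR6, was listed at 0, and it is not known if a 0 reflects missing mRNA or reads left uncounted. As total evidence, the mean of CXCR5 corresponds to 60.5 normalized counts if it was taken over 6 libraries and 90.8 if over 9, whereas that of CXCR4 corresponds to 36978 or 55467.

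Divided by gene length (merged exons, GENCODE 29), the level per kilobase was 2771 mean normalized counts for CXCR4, higher than in 99.2% of the 15375 protein-coding genes with a mean above 0. CCL3 followed at 101 per kilobase, CXCR3 at 53.0 and CCL4 at 23.9, which placed these genes above 73.4%, 63.5% and 52.2% of protein-coding genes. CXCR6 was at 6.33 per kilobase and CXCR5 at 2.28, above 38.0% and 29.3%. Per kilobase of the longest coding transcript, CCL4 was at 53.7 and CXCR3 at 53.2, so that the order of these neighbours depends on the length used. A mean over all libraries carries no spread, so no 2 neighbours in this order could be tested.

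**Figure D1:**
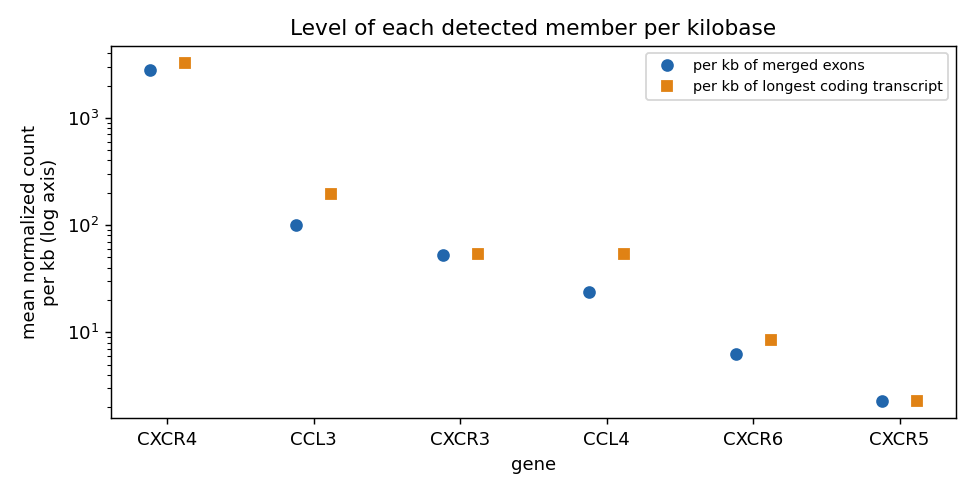
Mean normalized count per kilobase (log axis) of the 6 members with a mean above 0, by merged exon length (circles) and by the longest coding transcript (squares). CXCR4 stands at 2771 per kilobase of merged exons and the other 5 at 101 or less.

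In the comparison, 4 of the 6 tested members fell in the numerator group, CXCR3, CXCR6, CCL3 and CCL4, and none rose. Over the whole table, 4120 of 13957 tested genes (29.5%) passed an adjusted p of 0.05 by the deposited Wald test, 14.8% as lower and 14.7% as higher in the numerator group. The median log2 fold change was -0.63 for the 4 receptors and -2.85 for the 2 tested ligands, against 0.00 over all tested genes. Since levels of each group are not in the table, the changes are given below as the level in the numerator group in percent of that in the denominator group, with a 95% interval computed from the deposited standard error.

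**Figure D2:**
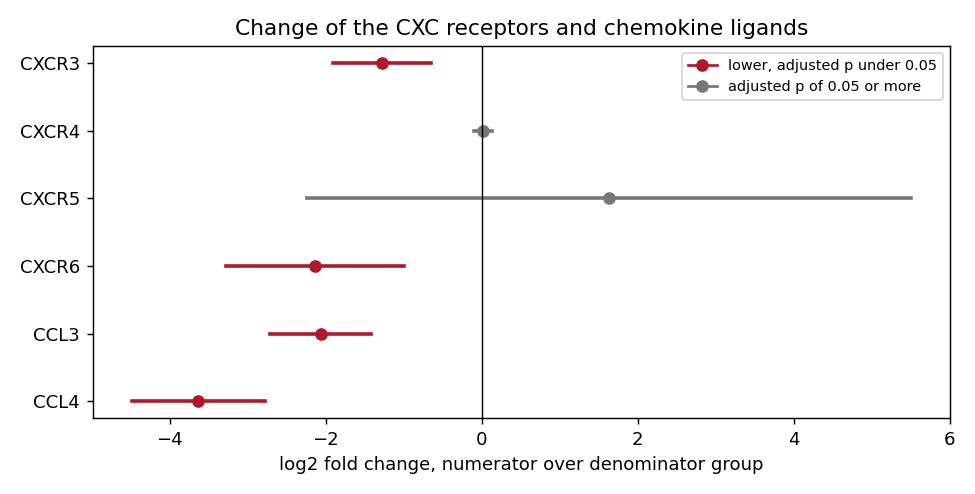
Deposited log2 fold change (points) and 95% interval (lines, from the deposited standard error) of the 6 members with an adjusted p-value, receptors above ligands. CXCR3, CXCR6, CCL3 and CCL4 lie below 0, CXCR4 lies at 0.02 with a narrow interval and CXCR5 spans -2.24 to 5.51.

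Both tested ligands fell. CCL4, which attracts leukocytes to sites of inflammation, had a log2 fold change of -3.64 (SE 0.43) in the authors' deposited table, with an adjusted p of 1.38e-15 by the Wald test. Its level in the numerator group was thus 8.05% of that in the denominator group, with an interval of 4.46% to 14.5%. CCL3, which binds CCR1, was at -2.07 (SE 0.33) in the authors' deposited table, with an adjusted p of 7.15e-09 by the Wald test. The numerator group held 23.9% of its level in the denominator group (15.2% to 37.6%). The 2 intervals did not overlap on the log2 scale, -4.49 to -2.78 for CCL4 and -2.72 to -1.41 for CCL3, but the difference between the genes was not tested. At least 4-fold lower calls made up 1.39% of all tested genes. Both genes have near-identical copies, CCL3L1, CCL3L3, CCL4L1 and CCL4L2, which were not analysed here, and how the authors assigned reads between copies is not given in the sources used here. Values of CCL3 and CCL4 are therefore uncertain in this respect.

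The receptors split. CXCR6 had a log2 fold change of -2.14 (SE 0.58) in the authors' deposited table, with an adjusted p of 0.00126 by the Wald test, and its level in the numerator group was 22.7% of that in the denominator group (10.3% to 49.96%). CXCR3 was at -1.28 (SE 0.32) in the authors' deposited table, with an adjusted p of 0.000378 by the Wald test, which is 41.2% of the level in the denominator group (26.7% to 63.5%). The intervals of CXCR6 and CXCR3 overlap. Against a change of 1.5-fold in place of no change, neither receptor kept its call, with an adjusted p of 0.132 for CXCR6 and 0.410 for CXCR3, whereas both ligands did. In that test 4.68% of all tested genes were called. With errors widened to the spread of the statistics of tested genes, chosen after seeing the data, the same 2 receptor calls were lost, at an adjusted p of 0.384 for CXCR6 and 0.302 for CXCR3, and 8.58% of all tested genes were called.

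CXCR4 did not pass, and here the precision was high. Its log2 fold change was 0.02 (SE 0.06) in the authors' deposited table, with an adjusted p of 0.871 by the Wald test. The interval ran from 93.5% to 110% of the level in the denominator group, so that a change beyond these bounds lies outside it. CXCR5 did not pass either, with a wide interval. Its log2 fold change was 1.63 (SE 1.98) in the authors' deposited table, with an adjusted p of 0.617 and an interval from 21.2% to 4552% of the level in the denominator group. The standard error of CXCR5 exceeded that of 96.7% of the 661 tested genes with a mean within 20% of its own, whose median error was 0.82. For CXCR3, CXCR4, CXCR6 and CCL4 that share was between 57.0% and 64.6%, and for CCL3 it was 83.3%. A difference in CXCR5 was not detectable at this error.

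**Figure D3:**
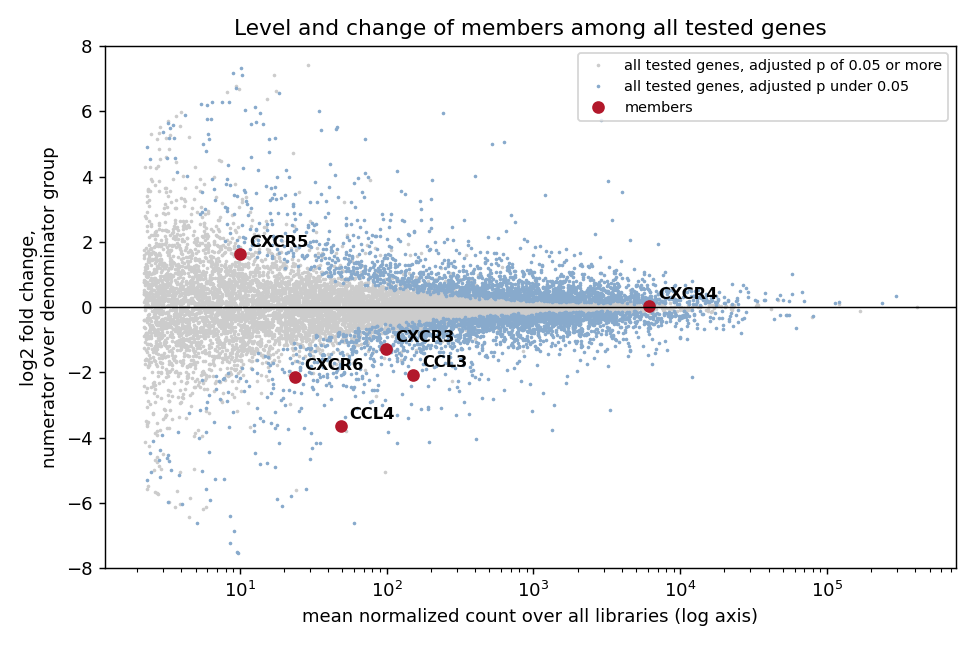
Deposited log2 fold change against mean normalized count (log axis) for tested genes, with the 6 members as large points. CXCR3, CXCR6, CCL3 and CCL4 lie between -1.28 and -3.64, CXCR4 lies beside the line of no change, and 4 tested genes lie outside the plotted range of -8 to 8.

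Other genes lie across 3 of the members (GRCh38, GENCODE 29), and any effect of this on their values was not tested. CXCR6 lies on chr3:45940933-45948353 on the plus strand, wholly inside FYCO1, which encodes an adaptor of autophagosome transport on the minus strand. FYCO1 had a mean of 51.2 and a log2 fold change of -2.00 (SE 0.42) in the authors' deposited table, with an adjusted p of 1.78e-05 by the Wald test, beside -2.14 for CXCR6. The 2 genes share 0 exon bases, and whether reads from introns of FYCO1 were counted for CXCR6 was not tested. CXCR5, on chr11:118883766-118897799 on the plus strand, shares 3925 of its 4431 exon bases with BCL9L, a cofactor of Wnt signalling on the minus strand. BCL9L had a mean of 646 in the authors' deposited table and fell, at a log2 fold change of -0.41 (adjusted p of 4.23e-06 by the Wald test, SE 0.08). Without strand in the counting, reads from BCL9L and CXCR5 cannot be told apart there, and whether the authors used strand is not given in the sources used here. CCL3, on chr17:36088256-36090169 on the minus strand, shares 1115 of its 1494 exon bases with AC243829.4, an antisense gene that was not analysed here.

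CCL3 and CCL4 are next to each other, 13421 bases apart on opposite strands, with CCL4 on chr17:36103590-36105621 on the plus strand. CCL18, the neighbour of CCL3 on the other side, had a mean of 0.323 in the authors' deposited table and no adjusted p. CXCR3 lies on chrX:71615916-71618517 on the minus strand, 2333 bases from GCNA, a gene of germ cells, which also fell, at a log2 fold change of -0.83 (adjusted p of 0.0144 by the Wald test, SE 0.28) in the authors' deposited table. CXCR4 lies on chr2:136114349-136118165 on the minus strand with no other annotated gene across it. Its nearest coding neighbour in the table, DARS, an aspartyl-tRNA synthetase, did not pass, with a log2 fold change of 0.34 (adjusted p of 0.0658 by the Wald test, SE 0.15) in the authors' deposited table.

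Promoter sequence is shown for 3 members that fell and for CXCR4, the abundant member that did not pass. CCL4 also fell but had no entry in the sequence source used here. Each line gives the 250 bases before the most upstream start in RefSeq (GRCh38.p14), 5′ to 3′ on the gene's strand, from chrX:71618512-71618761 (minus) for CXCR3, chr3:45943214-45943463 (plus) for CXCR6, chr17:36090144-36090393 (minus) for CCL3 and chr2:136118150-136118399 (minus) for CXCR4. Capitals mark matches to any of 8 motifs searched on both strands.
CXCR3: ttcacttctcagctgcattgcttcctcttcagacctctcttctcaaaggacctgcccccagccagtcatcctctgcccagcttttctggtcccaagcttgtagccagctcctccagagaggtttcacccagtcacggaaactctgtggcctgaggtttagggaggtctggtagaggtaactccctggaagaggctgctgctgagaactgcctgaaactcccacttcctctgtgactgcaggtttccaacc
CXCR6: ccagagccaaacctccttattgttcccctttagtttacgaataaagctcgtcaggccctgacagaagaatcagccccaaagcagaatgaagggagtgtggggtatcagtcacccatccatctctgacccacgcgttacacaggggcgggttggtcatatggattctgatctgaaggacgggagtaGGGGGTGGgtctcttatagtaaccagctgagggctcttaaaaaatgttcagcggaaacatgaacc
CCL3: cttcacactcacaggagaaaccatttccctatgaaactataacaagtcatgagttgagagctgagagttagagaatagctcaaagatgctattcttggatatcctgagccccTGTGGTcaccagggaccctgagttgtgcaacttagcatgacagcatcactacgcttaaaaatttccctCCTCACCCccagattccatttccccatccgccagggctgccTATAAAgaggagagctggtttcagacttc
CXCR4: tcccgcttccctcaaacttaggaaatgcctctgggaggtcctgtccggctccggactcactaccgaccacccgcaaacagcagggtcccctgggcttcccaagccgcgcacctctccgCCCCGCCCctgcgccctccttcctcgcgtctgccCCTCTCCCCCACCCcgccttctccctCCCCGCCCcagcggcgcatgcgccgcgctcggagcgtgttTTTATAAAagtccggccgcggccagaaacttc

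The motifs were TATAAA for the TATA box, TGTGGT for RUNX factors, GGTGTGA for T-box factors, TGANTCA for AP-1, GGAAAA for NFAT, TTCNNNGAA for STAT factors, GGANTTTCC for NF-kB and CCNCNCCC for KLF factors. CCL3 held a TATA box 29 bases before its start, a RUNX match 138 bases before it and a KLF match 70 bases before it. CXCR4 held a TATA box 30 bases before its start and 4 KLF matches, 2 of which overlap. Another TATA match, on the strand opposite to CXCR4, began 32 bases before the start and overlapped that TATA box. CXCR6 held 1 KLF match, on the strand opposite to the gene, and CXCR3 held none of the 8. Of 34943 windows of the same length in the RefSeq table, 10.8% held the TATA motif, 11.0% the RUNX motif and 53.3% the KLF motif. The other motifs, found in 2.76% (T-box), 6.59% (AP-1), 21.2% (NFAT), 6.56% (STAT) and 1.46% (NF-kB) of windows, were in none of the 4. A match is a description of letters and not a bound site.

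Receptors of the ligands also fell. Of CCR1, CCR3, CCR6 and XCR1, 2 were tested and both were lower in the numerator group. CCR3, a receptor of CCL5, was at -3.15 (SE 0.34) and CCR6, the receptor of CCL20, at -2.25 (SE 0.24) in the authors' deposited table. XCR1, the receptor of XCL1 and XCL2, had a mean of 1.03 and no adjusted p, and CCR1 was not analysed here.

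The tested ligands of the CXC receptors went the other way, at low levels. All 4 tested of 6 were higher in the numerator group, with means under the minimum of 72.0 set for naming genes, and are named after their values were seen. CXCL12, the ligand of CXCR4, had a mean of 9.02 and a log2 fold change of 7.17 (SE 1.47), and CXCL13, the ligand of CXCR5, a mean of 3.26 and a log2 fold change of 5.65 (SE 1.86), both in the authors' deposited table. CXCL16, the ligand of CXCR6, had a mean of 9.49 and a log2 fold change of 3.39 (SE 0.97) and CXCL11, a ligand of CXCR3, a mean of 15.3 and a log2 fold change of 2.55 (SE 0.67) in the authors' deposited table. Their adjusted p-values by the Wald test ran up to 0.0104, for CXCL13. At such means a fitted fold change is imprecise, and among tested genes with a mean under 72.0 the share called was 10.2%, against 42.6% at or above it. CXCL9, another ligand of CXCR3, had a mean of 1.43 and a log2 fold change of -0.99 (SE 2.04) in the authors' deposited table, with no adjusted p, and CXCL10 was not analysed here.

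**Figure D4:**
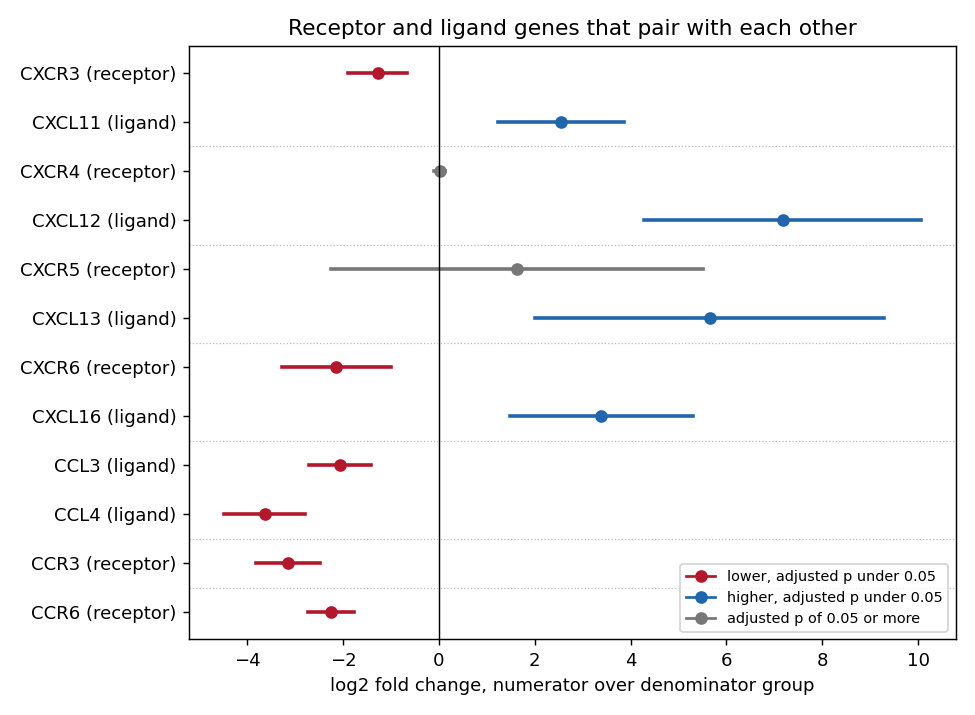
Deposited log2 fold change (points) and 95% interval (lines) of receptor and ligand genes, with dotted lines between sets. CXCL11, CXCL12, CXCL13 and CXCL16 lie above 0 while CXCR3, CXCR6, CCL3, CCL4, CCR3 and CCR6 lie below 0, and CXCR4 and CXCR5 did not pass.

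The remaining chemokine receptors went both ways. CCR4 and CCR7 were higher and CCR2 and CCR8 lower among the other CC receptors, of which 4 of 6 were tested. CCR7, which guides cells to lymph nodes, was at a log2 fold change of 2.05 (SE 0.06) and CCR4, a receptor of skin-homing cells, at 1.95 (SE 0.04) in the authors' deposited table. CCR2, which binds CCL2, was at -3.16 (SE 0.06) and CCR8 at -0.69 (SE 0.06), also in the authors' deposited table. Of 8 other CXC, CX3C and atypical receptors, 5 were tested and 2 passed, both lower. They were CX3CR1, the fractalkine receptor of cytotoxic cells, at -1.40 (SE 0.37) with a mean of 48.4, and CXCR1, an interleukin-8 receptor, at -5.20 (SE 1.86) with a mean of 2.88, in the authors' deposited table, named after their values were seen. Of 32 other chemokine ligands on the lists, 7 were tested, with 1 higher and 1 lower. CCL2, which attracts monocytes, had a log2 fold change of 2.67 (SE 0.34) and CCL28, a mucosal chemokine, -0.64 (SE 0.12) in the authors' deposited table.

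Genes that carry the receptor signal were split. Of 17 tested G proteins and effectors, 4 were higher and 4 lower, with a median log2 fold change of 0.05. PIK3R6, which regulates the gamma form of phosphoinositide 3-kinase, was at 5.00 (SE 0.18) and TIAM1, an activator of RAC, at 1.67 (SE 0.26) in the authors' deposited table. GNAI2, an inhibitory G protein subunit, was at -0.84 (SE 0.16), PIK3CG, the catalytic subunit of that kinase, at -0.75 (SE 0.13), and PLCB2, a phospholipase, at -0.49 (SE 0.07) in the authors' deposited table. Of 15 tested genes of receptor desensitization and sorting, 2 were higher and 5 lower, with a median of -0.14. GRK3, a kinase that switches receptors off, was at 0.78 (SE 0.07) and RGS1, which shortens G protein signals, at 0.50 (SE 0.12) in the authors' deposited table. ARRB1, which uncouples receptors from G proteins, was at -1.04 (SE 0.10), and the regulators of G protein signals RGS3 at -0.85 (SE 0.18) and RGS14 at -0.78 (SE 0.21) in the authors' deposited table. Of 7 tested genes of chemokine storage, sulfation and cleavage, 1 was higher and 2 lower. CD74, the invariant chain and a receptor of MIF, was at 0.47 (SE 0.04), TPST2, which sulfates tyrosines of chemokine receptors, at -1.09 (SE 0.14), and ADAM10, which sheds CXCL16 from membranes, at -0.52 (SE 0.06) in the authors' deposited table.

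Among 23 transcription factors known to act on these receptor and ligand genes, 18 were tested, with 4 higher and 8 lower and a median log2 fold change of -0.34. KLF2, a factor of quiescent lymphocytes, was at -3.18 (SE 0.15), MAF, a factor of helper T-cell cytokine genes, at -2.32 (SE 0.08) and NFATC1, a factor of calcium signalling, at -1.28 (SE 0.24) in the authors' deposited table. PRDM1, a factor of terminal effector cells, was at 2.07 (SE 0.22) and BCL6, known for driving CXCR5 in follicular helper cells, at 1.75 (SE 0.20) in the authors' deposited table. TBX21, the known activator of CXCR3, had a mean of 0.669 in the authors' deposited table and no adjusted p, and is named after its value was seen. Over all these lists, counted once per gene and without the members, 18 of 79 tested genes were higher and 26 lower. Among all tested genes 14.7% were higher and 14.8% lower, and 42.6% of those with a mean of at least 72.0 passed in either direction, a level reached by 57 of the 109 genes of these lists in the table.

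Markers of cell types differed by list. Of 8 tested T-lymphocyte markers 6 fell and none rose, with a median log2 fold change of -0.62. All 8 had a mean of at least 72.0, and of all tested genes at that level 42.6% passed in either direction. Over all tested genes 14.8% were lower. TRAT1 was at -0.82 (SE 0.06), CD3D at -0.77 (SE 0.06) and CD247 at -0.64 (SE 0.09) in the authors' deposited table. CD8B was at -0.60 (SE 0.08), CD3E at -0.51 (SE 0.06) and CD8A at -0.32 (SE 0.07), also in the authors' deposited table. Of 7 natural killer cell markers, 3 were tested and 2 fell, NCAM1 at -1.61 (SE 0.10) and FCGR3A at -1.36 (SE 0.33) in the authors' deposited table. NCR1 and KIR2DL4 were listed at 0. The summed mean over all libraries was 63902 for the T-lymphocyte list and 642 for the natural killer list, and sums per group are not known. B-lymphocyte markers summed to 48.9, with MS4A1 and PAX5 at 0, 1 higher and 1 lower of 3 tested. Monocyte and macrophage markers summed to 31.5, with 1 higher and 1 lower of 4 tested. The higher one was CSF1R, the receptor of a macrophage growth factor. Its log2 fold change was 4.20 (SE 0.76) with a mean of 20.7 in the authors' deposited table. The lower one was LYZ, at -6.02 (SE 1.93) with a mean of 4.06, also in the authors' deposited table. Of 2 tested platelet markers 1 was higher, GP1BA, at 20.4 (SE 3.91) with a mean of 23.1. At such a mean a fold change of that size is a fitted value and cannot be read as a measured ratio. The other platelet marker, ITGA2B, did not pass, at 1.26 (SE 1.56) with a mean of 4.96. Of 2 tested endothelial markers 1 was higher, VWF, at 2.54 (SE 0.96) with a mean of 16.6. The other, PECAM1, had a mean of 879 and did not pass, at 0.10 (SE 0.08). These values are from the authors' deposited table. These markers were named after their values were seen, and their part in the higher values of CXCL11, CXCL12, CXCL13 and CXCL16 was not tested. The part of these markers in the changes of CXCR3, CXCR6, CCL3 and CCL4 was not tested. In bulk RNA, fewer cells that express a gene and less of its RNA per cell cannot be told apart.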

How the data were processed

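Per the labels and their protocols, RNA was sequenced from 6 samples in 2 groups of 3, with libraries from total RNA and a SMARTer kit. Whether the values used here come from these libraries is not known. Per the submitters' processing notes, STAR, Salmon and hg38 were used, with no version or role stated. The contrast's direction is not given in the sources used here. The authors' deposited table gives, per the file headers, a mean normalized count (treated as a signal), a log2 fold change with its standard error, a Wald statistic (a score), a p-value and an adjusted p-value. Adjusting the deposited p-values by Benjamini-Hochberg over 13957 genes gave the deposited adjusted p to within 3.66e-07, which was used as the main test with a threshold of 0.05.

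Computed here were 95% normal intervals, levels per kilobase, and calls under other settings. Only the Wald call and the call against a change of 1.5-fold were tried on simulated data. A mean of 72.0 is 5 per 1000000 of the summed means. Names matched 33483 genes and GENCODE 29 33582. All 10 members are named. Not every gene of these families is reported here. Of other lists, genes that passed and reached a mean of 72.0 are named, up to 5 per list. The members, lists and motifs were chosen with earlier results of these data known. Python 3.11.15, numpy 2.4.6, pandas 2.3.3, scipy 1.17.1 and matplotlib 3.10.9 were used.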

Additional observations from a re-analysis of the deposited data

How the results depend on the processing

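CCL3 and CCL4 kept their direction and call wherever they were tested, with adjusted p-values up to 0.0287 and 0.000869. CXCR3 and CXCR6 lost their call in a test against a change of 1.5-fold, at log2 fold changes of -1.28 (adjusted p of 0.410) and -2.14 (0.132). They also lost it with errors widened to the spread of the statistics of tested genes (a factor of 2.03; adjusted p of 0.302 and 0.384), an alternative chosen after seeing the data. In both settings 2 of 6 tested members, 0 of 4 receptors and both ligands passed, and the genes called over the whole table fell to 653 (4.68%) and 1197 (8.58%), against 4120 as deposited. With adjustment over the 8312 genes at or above the minimum mean, 3 members were tested and 2 passed, 1 receptor (CXCR3) and 1 ligand (CCL3), because CXCR5, CXCR6 and CCL4 lie under it. The other settings, adjustment over every gene with a p-value or over protein-coding genes, centring on the median (a shift of 0.01 on the log2 scale), errors scaled up by the spread over all statistics (a factor of 1.09) and a threshold of 0.01, left 4 members past the threshold. Of 45 member values under these settings, 41 kept direction and side of the threshold. CXCR4 and CXCR5 passed in none. Per kilobase of the longest coding transcript, levels were 53.2 for CXCR3, 3252 for CXCR4, 8.51 for CXCR6, 194 for CCL3 and 53.7 for CCL4, and that of CXCR5 did not move. No paired analysis was possible because the table holds no values per sample, and for the same reason leaving out replicates, other tools and other normalizations were not run. The median standard error was 0.14 for tested genes with a mean of at least 72.0 and 0.80 below it, which limits what CXCR5 and CXCR6 can show.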
